A study of Mus musculus with 6 samples.

Results

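Lysosomes are the acidic compartments in which cells take proteins, sugars and lipids apart. The mRNAs of 38 genes for lysosomal proteases, glycosidases, lipid-handling proteins, membrane proteins and proton pump subunits, and for their regulator Tfeb, were compared between the thymus of 2 mouse crosses. The genes came from a fixed list. Each was represented by 1 probe set, the brightest on average across the 6 arrays among those annotated with that symbol alone. The other probe sets served as a check. Of the 38 genes, 37 were measured among 12855 genes in all. Cd63 had no probe set annotated with it alone and was not analysed here.

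The thymus came from adult female mice, with 3 arrays from (AKR/J x FVB/NJ)F1 animals (the AKR cross) and 3 arrays from (DBA/2J x FVB/NJ)F1 animals (the DBA cross). All animals thus shared an FVB/NJ parent, carried no engineered gene that the labels name, and were killed under Avertin, an anaesthetic. The labels give no exact age, and they do not state whether each array is a separate animal or a repeat. The p-values therefore reflect only the scatter among these arrays, which could be technical. No sorting of cells is described, so each value mixes thymocytes with epithelial, myeloid and other cells.

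Sorting receptors carry newly made enzymes to lysosomes, and a proton pump in the lysosomal membrane, the vacuolar ATPase, keeps the interior acidic so that the enzymes work. Tfeb and its relatives bind a short palindromic sequence, the CLEAR element, near the start of many lysosomal genes and can raise them together. In the thymus, lysosomal proteases are known for preparing the proteins that epithelial and antigen-presenting cells show to developing T cells, and macrophages digest dying thymocytes in lysosomes.

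The number of arrays limits the precision. Values are on a log2 scale, and array medians ran from 5.92 to 5.95. Correlations over all probe sets were 0.994 to 0.996 within a cross and 0.984 to 0.989 between crosses. Thymocyte genes were bright on every array, such as Rag1, a recombinase gene of developing T cells, at 12.88 to 13.10. A difference is the AKR mean minus the DBA mean in log2 units, given with its standard error (SE). A gene counts as called at a limma p below 0.05 after Benjamini-Hochberg adjustment over all 12855 genes.

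Lysosomal genes differed between the crosses in both directions and by small amounts. Higher levels in the AKR cross (the AKR side) were called for 9 of the 37 measured genes, beside 12.5% of all genes tested. Higher levels in the DBA cross (the DBA side) were called for 4, beside 11.5% of all genes tested, and 24 did not pass. In either direction this is 35.1% of the 37, beside 24.0% of all genes. The 37 were brighter than all genes, with mean levels of 9.63 to 9.73 against 7.97 to 8.02 over the 6 arrays. Whether brightness bears on the share called was not tested. The AKR side held the pump subunit genes Atp6v0d1, Atp6v0b and Atp6v1a, the protease genes Ctsd, Ctsb and Tpp1, the glycosidase genes Man2b1 and Gla and the lipase gene Lipa. The DBA side held the cholesterol transporter gene Npc1, the protease genes Ctss and Ctsc and the membrane protein gene Scarb2. In a whole organ, fewer cells of a type and less RNA per cell cannot be told apart.

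Called differences ran from 1.17-fold to 1.52-fold, and 12 of the 13 were under 1.5-fold. The median over the 37 genes was 0.03, beside 0.03 over all genes, with 20 genes above 0 and 17 below. The arrays of the crosses did not overlap for 13 genes higher in the AKR cross (24.5% of all genes) and 6 higher in the DBA cross (19.4%). The SD of a gene within a cross ran from 0.00662 to 0.215, with a median of 0.0666. All 37 genes lay above the 40th percentile of every array. With 1 array left out, 6 to 8 of the genes were called on the AKR side and 3 to 4 on the DBA side. In those fits the shares of all genes called also fell, to 6.95% to 11.1% and 7.4% to 9.3%. The lowest AKR count, 6, came with AKR array 1 or DBA array 3 left out. Arrays are numbered as the replicates in the labels. Quantile normalization raised the AKR share of all calls from 52.0% to 62.1%, and median centring raised it to 62.0%. Under quantile normalization 13 of the 37 genes were on the AKR side (16.9% of all genes) and 4 on the DBA side (10.3%).

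**Figure D1:**
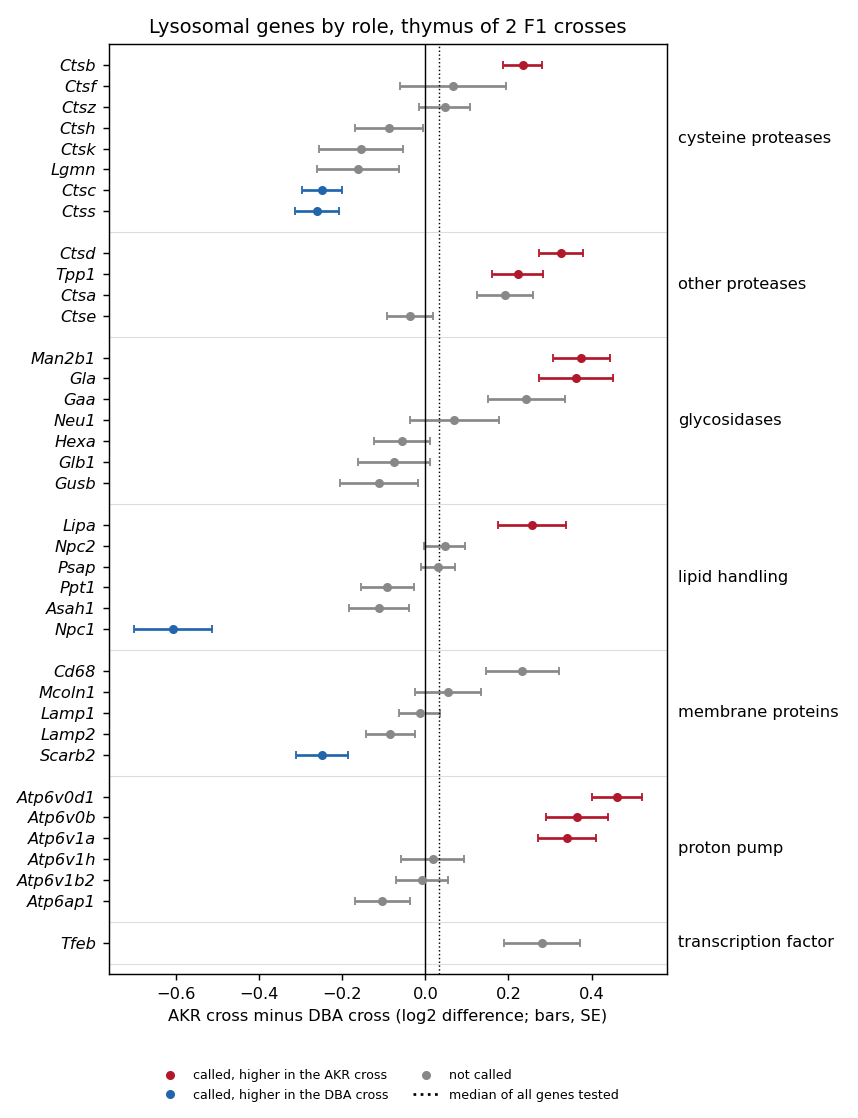
Log2 difference (AKR mean minus DBA mean) with SE bars for the 37 measured lysosomal genes, grouped by role, with called genes coloured and the median of all genes as a dotted line. The 9 genes called on the AKR side and 4 on the DBA side lie within -0.61 and 0.46.

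**Figure D2:**
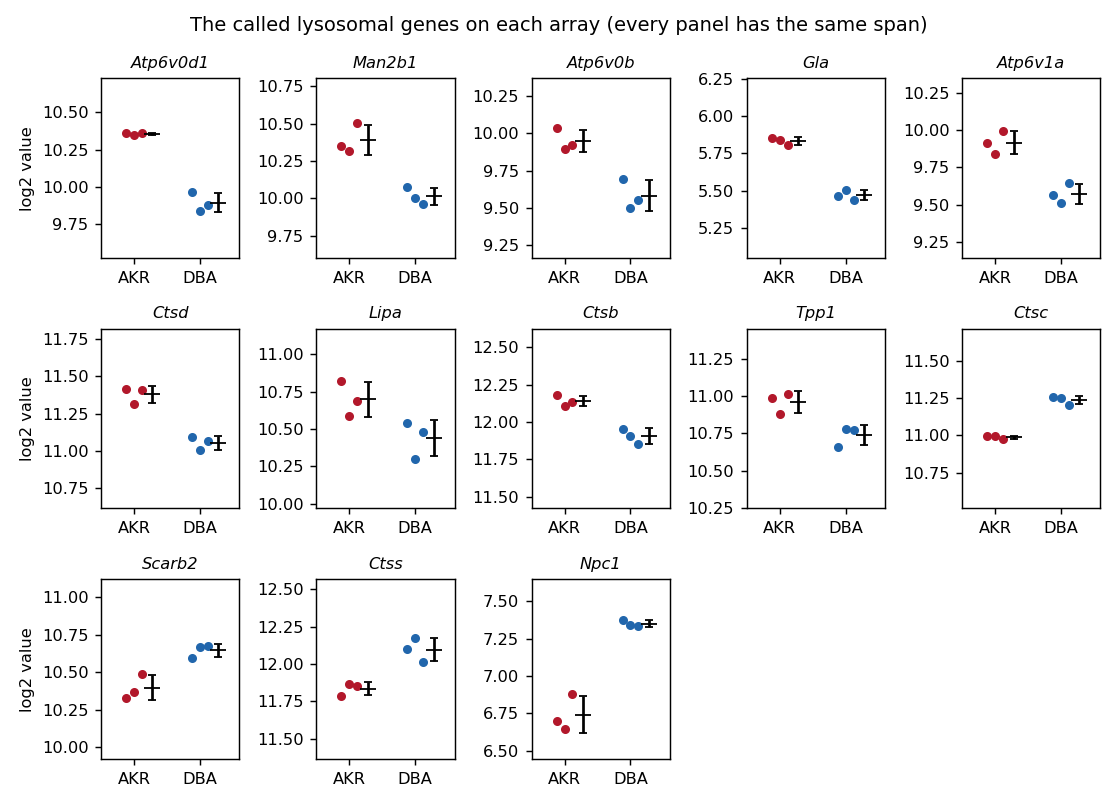
Log2 values on each of the 6 arrays for the 13 called lysosomal genes, with mean and SD bars (n = 3 per cross) and the same span in every panel. In each panel the arrays of one cross lie wholly above those of the other.

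Promoter sequences are shown because Tfeb is known to bind the CLEAR element and several of the called genes hold its core. RefSeq windows of build GRCm38.p6, from 250 bases before to 50 bases after the start site, matched 31 of the 38 genes. The core was searched as TCACGTGA and the E-box as CACGTG. Both read the same on either strand, and every core contains an E-box. The core was found for 6 of the 31 genes (19.4%), beside 1.12% of all 27025 genes with a window. The E-box was in 12 of 31 (38.7%), beside 8.09%. First come the 4 called genes with the core, in capitals, then Atp6v0b with E-boxes in capitals, and then Ctss, which has neither motif and was on the DBA side. Each runs 5′ to 3′ along its gene, in the C57BL/6J reference and not in the strains studied. An E-box of Ctsd outside its core is left in lower case.
Atp6v0d1: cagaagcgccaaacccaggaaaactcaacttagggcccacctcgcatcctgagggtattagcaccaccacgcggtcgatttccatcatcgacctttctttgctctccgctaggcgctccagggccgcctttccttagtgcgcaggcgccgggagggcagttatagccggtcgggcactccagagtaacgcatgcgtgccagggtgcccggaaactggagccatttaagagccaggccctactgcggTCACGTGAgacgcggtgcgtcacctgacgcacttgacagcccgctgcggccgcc
Ctsd: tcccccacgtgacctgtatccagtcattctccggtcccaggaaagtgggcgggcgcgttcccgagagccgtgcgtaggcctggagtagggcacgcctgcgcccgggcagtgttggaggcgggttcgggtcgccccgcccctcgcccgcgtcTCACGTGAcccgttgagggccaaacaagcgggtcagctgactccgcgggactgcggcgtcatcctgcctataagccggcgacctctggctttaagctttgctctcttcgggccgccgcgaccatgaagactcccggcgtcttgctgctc
Atp6v1a: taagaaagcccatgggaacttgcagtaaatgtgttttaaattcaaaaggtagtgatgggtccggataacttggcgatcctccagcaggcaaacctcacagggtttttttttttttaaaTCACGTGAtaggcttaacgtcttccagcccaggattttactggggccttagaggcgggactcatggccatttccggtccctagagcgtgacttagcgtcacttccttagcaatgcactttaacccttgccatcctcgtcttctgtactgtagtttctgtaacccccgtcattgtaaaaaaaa
Gla: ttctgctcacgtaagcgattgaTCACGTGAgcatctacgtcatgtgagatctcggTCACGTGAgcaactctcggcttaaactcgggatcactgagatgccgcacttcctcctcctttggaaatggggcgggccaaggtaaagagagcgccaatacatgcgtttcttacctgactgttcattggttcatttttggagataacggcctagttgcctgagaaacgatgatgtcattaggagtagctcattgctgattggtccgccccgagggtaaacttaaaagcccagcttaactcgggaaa
Atp6v0b: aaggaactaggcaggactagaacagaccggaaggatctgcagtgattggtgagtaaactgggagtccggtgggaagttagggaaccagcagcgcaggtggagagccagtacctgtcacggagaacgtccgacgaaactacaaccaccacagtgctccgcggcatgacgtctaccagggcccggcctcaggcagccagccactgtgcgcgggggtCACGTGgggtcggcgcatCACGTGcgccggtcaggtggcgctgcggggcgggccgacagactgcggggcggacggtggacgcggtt
Ctss: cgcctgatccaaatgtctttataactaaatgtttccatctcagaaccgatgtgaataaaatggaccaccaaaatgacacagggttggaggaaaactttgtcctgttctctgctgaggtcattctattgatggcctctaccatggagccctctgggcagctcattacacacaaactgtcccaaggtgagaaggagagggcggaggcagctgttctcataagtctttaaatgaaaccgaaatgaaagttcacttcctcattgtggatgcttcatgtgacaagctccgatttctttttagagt

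The core of Atp6v0d1 (minus strand, chr8:105566015-105566314) spans the start site, beginning 4 bases before it. In Ctsd (minus strand, chr7:142387778-142388077) it begins 99 bases before the start, and in Atp6v1a (minus strand, chr16:44139210-44139509) 132 bases before. Gla (minus strand, chrX:134600956-134601255) holds 2 cores, beginning 228 and 195 bases before the start. The E-boxes of Atp6v0b (minus strand, chr4:117887280-117887579) begin 36 and 18 bases before. The Ctss window lies on the plus strand at chr3:95526536-95526835.

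All 6 genes with the core, which besides the 4 shown are Ctsa and Mcoln1, had positive differences, with a median of 0.33. Of the 6, 4 were called on the AKR side, beside 12.5% of all genes (11.5% on the DBA side). Genes with an E-box alone had a median of 0.03, and 1 of 6, Atp6v0b, was called. Genes with neither motif had a median of -0.01, with 3 of 18 called on the AKR side (Man2b1, Tpp1 and Lipa) and 3 on the DBA side. The 7 measured genes without a window had a median of -0.04, with 1 called on the AKR side (Ctsb) and 1 on the DBA side (Npc1). Among 53 other measured lysosomal genes the split looked different. There 5 genes had the core, with a median of 0.02, 0 called on the AKR side and 2 (Igf2r and Cd164) called on the DBA side. No test between these classes was run, and a match of letters is a description of the window alone.

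**Figure D3:**
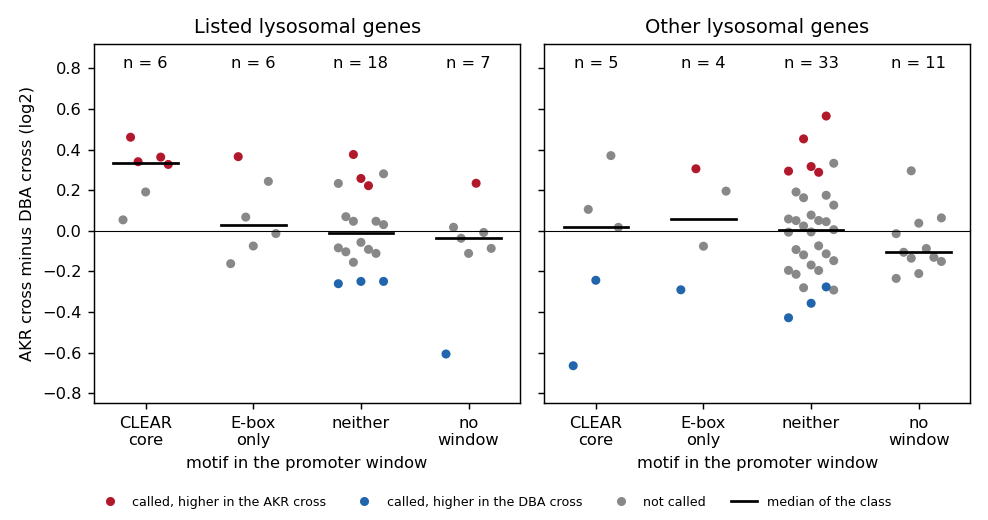
Log2 difference (AKR mean minus DBA mean) of each measured lysosomal gene by the motif in its promoter window, for the 37 listed genes and for 53 other lysosomal genes, with class medians as black lines. The 6 listed genes with the core lie above 0, and the 5 other genes with it lie on both sides.

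Among the probe sets that represent the 37 genes, the largest difference on the AKR side was that of a proton pump gene, Atp6v0d1. Of 6 pump genes, 3 were called on the AKR side, 0 on the DBA side and 3 fell short, beside 12.5% and 11.5% of all genes. The count on the AKR side was also 3 with any 1 array left out, where 6.95% to 11.1% of all genes were called on that side. Atp6v0d1 (probe set 1415671_at) encodes the d subunit of the membrane sector. The gene read 10.36, 10.35 and 10.36 in the AKR cross and 9.97, 9.84 and 9.88 in the DBA cross. The AKR arrays were nearly level with each other and all above the DBA arrays, with means 10.36 ± 0.01 and 9.90 ± 0.06 (SD, n = 3). The difference was 0.46 ± 0.06 (SE; 1.38-fold, adjusted p = 0.00125, limma), called under 18 of 18 alternatives.

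Atp6v0b (1437013_x_at), a gene for a subunit of the proton-carrying ring, read 10.03, 9.89 and 9.92 against 9.70, 9.50 and 9.55. Array 1 was the highest in each cross, and the crosses stayed apart. Its difference was 0.36 ± 0.08 (SE; 1.29-fold, adjusted p = 0.00950, limma). That call was lost with no variance sharing (adjusted p = 0.0582), and its other probe sets gave 0.18 and 0.14, not called. Atp6v1a (1450634_at), a gene for the catalytic subunit that splits ATP, read 9.92, 9.84 and 9.99 against 9.57, 9.51 and 9.65. Again each AKR array lay above each DBA array. The difference was 0.34 ± 0.07 (SE; 1.27-fold, adjusted p = 0.00929, limma), while a second probe set gave 0.07 ± 0.10 and was not called.

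The remaining pump genes lay near 0 with overlapping arrays. Atp6v1b2, the gene for the partner of the catalytic subunit, differed by -0.01 ± 0.06, and Atp6v1h, a regulatory subunit gene, by 0.02 ± 0.08. The Atp6v1h arrays read 8.89, 8.96 and 8.85 against 8.96, 8.90 and 8.79. Atp6ap1, an accessory subunit gene, differed by -0.10 ± 0.07. A dimmer probe set of Atp6v1h read differently, with 6.39, 5.57 and 6.19 in the AKR cross and 6.77, 6.76 and 7.37 in the DBA cross. Its arrays were spread widely, and it was called on the DBA side (-0.91 ± 0.23, adjusted p over probe sets = 0.0172, limma). On the mean of both probe sets Atp6v1h was called on that side too (-0.45, adjusted p = 0.0169), so its direction depends on the probe set.

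The pump has a membrane sector (V0), through which protons pass, and a cytosolic sector (V1), which splits ATP. More of its genes were measured on a wider list of lysosomal genes, and the split by sector was made after the values were seen. Of 7 V0 genes, 4 were called on the AKR side and 0 on the DBA side, with a median of 0.29, beside 12.5% and 11.5% of all genes and their median of 0.03. Tcirg1, the gene for a V0 subunit known from osteoclasts and immune cells, read 8.25, 8.36 and 8.31 against 7.88, 7.86 and 7.81. Its arrays were well apart, with a difference of 0.45 ± 0.08 (SE; 1.37-fold, adjusted p = 0.00418, limma). Atp6v0a1, a gene for a related V0 subunit, differed by 0.29 ± 0.09 (SE; 1.23-fold, adjusted p = 0.0386, limma). This gene was no longer called when AKR array 2 (adjusted p = 0.119), AKR array 3 (0.0896), DBA array 1 (0.0728), DBA array 2 (0.115) or DBA array 3 (0.0656) was left out, with dim probe sets kept (0.0504), with no variance sharing (0.0625) and on the mean of its probe sets (0.0937). Of 8 V1 genes, 1 was called on the AKR side, Atp6v1a, and 1 on the DBA side, with a median of -0.01. The latter was Atp6v1d, a stalk subunit gene, with a difference of -0.28 ± 0.06 (SE; 1.21-fold, adjusted p = 0.0154, limma). The call did not hold when AKR array 2 (adjusted p = 0.0503) or DBA array 2 (0.0639) was left out and with no variance sharing (0.0581). Of the 8 V1 genes, 3 lay above 0 and 5 below. Atp6v1e1 was not called (0.17 ± 0.07, adjusted p = 0.0882, limma), but was on the AKR side under some alternatives, quantile normalization among them (0.0260). Atp6v1g1 (-0.11 ± 0.05, not called) turned to 0.22 without probe sets marked as cross-hybridising or shared. It was then called on the AKR side (adjusted p = 0.0228, limma). No test between the sectors was run.

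**Figure D4:**
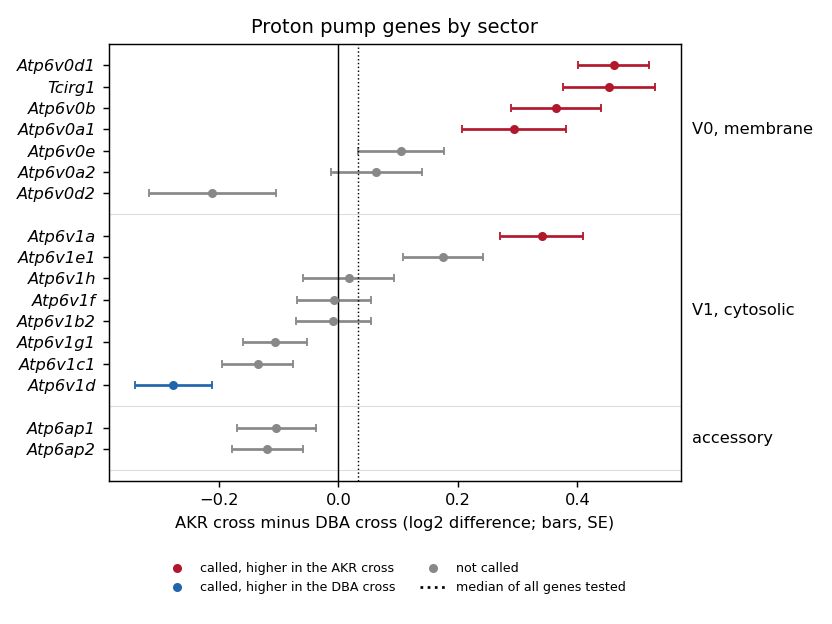
Log2 difference (AKR mean minus DBA mean) with SE bars for 17 proton pump genes by sector, with called genes coloured and the median of all genes as a dotted line. Of 7 V0 genes 6 lie above 0, and the 8 V1 genes range from -0.28 to 0.34.

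Protease genes went both ways. Over all genes, 12.5% were called on the AKR side and 11.5% on the DBA side. Of 8 cysteine protease genes, 1 was called on the AKR side and 2 on the DBA side. These counts were the same without any 1 array, where 6.95% to 11.1% and 7.4% to 9.3% of all genes were called. Of 4 other protease genes, 2 were called on the AKR side. Ctsd (1448118_a_at), for cathepsin D, the chief aspartic protease of lysosomes, read 11.41, 11.31 and 11.41 in the AKR cross and 11.09, 11.00 and 11.06 in the DBA cross. The lowest AKR array stood clear of the highest DBA array. The difference was 0.33 ± 0.05 (SE; 1.25-fold, adjusted p = 0.00346, limma), called under 17 of 17 alternatives. Ctsb (1417490_at), for cathepsin B, a cysteine protease of broad reach, read 12.18, 12.11 and 12.13 against 11.96, 11.91 and 11.85. All its AKR arrays were higher. The difference was 0.23 ± 0.05 (SE; 1.18-fold, adjusted p = 0.00777, limma). It was not called with eBayes without trend (adjusted p = 0.0523) and on the mean of its probe sets (0.302). A second bright probe set of Ctsb was called on the same side (0.20 ± 0.05, adjusted p over probe sets = 0.0234, limma), and 3 dimmer ones were not called.

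Tpp1 (1448313_at), for a peptidase that removes tripeptides and is lost in a childhood lysosomal storage disease, read 10.98, 10.88 and 11.01 against 10.66, 10.78 and 10.77. The gap between the crosses was narrow. Its difference was 0.22 ± 0.06 (SE; 1.17-fold, adjusted p = 0.0290, limma). The threshold was missed when AKR array 1 (adjusted p = 0.0789), AKR array 3 (0.0912), DBA array 1 (0.0855), DBA array 2 (0.0614) or DBA array 3 (0.0533) was left out, with eBayes without trend (0.0778), with no variance sharing (0.0830) and on the mean of its probe sets (0.430). The second probe set of Tpp1 gave -0.09 ± 0.08. Ctsa, for a carboxypeptidase that also protects neuraminidase, read 10.35, 10.22 and 10.39 against 10.20, 10.10 and 10.09. Every AKR array was higher, yet the gene was not called (0.19 ± 0.07, adjusted p = 0.0690, limma). It was called under 5 of 18 alternatives, quantile normalization among them (0.0145). Ctse, an aspartic protease gene of endosomes, differed by -0.04 ± 0.06.

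On the DBA side, Ctss (1448591_at) encodes cathepsin S, known for trimming the invariant chain of MHC class II in antigen-presenting cells. It read 11.79, 11.86 and 11.85 in the AKR cross and 12.10, 12.18 and 12.02 in the DBA cross. Every DBA array was higher, with a difference of -0.26 ± 0.05 (SE; 1.20-fold, adjusted p = 0.00847, limma). That call was lost with no variance sharing (adjusted p = 0.0571). Ctsc (1416382_at), for the peptidase that activates granule proteases, read 10.99, 10.99 and 10.97 against 11.26, 11.25 and 11.20. Arrays of one cross sat close together and far from the other cross. The difference was -0.25 ± 0.05 (SE; 1.19-fold, adjusted p = 0.00700, limma), called under 18 of 18 alternatives. The other cysteine protease genes did not pass. Ctsk, for the collagen-degrading cathepsin K, and Lgmn, for the asparagine-specific legumain, differed by -0.16 ± 0.10 and -0.16 ± 0.10, and only Ctsk had arrays that did not overlap. Ctsf, Ctsh and Ctsz differed by 0.07 ± 0.13, -0.09 ± 0.08 and 0.05 ± 0.06.

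Of 7 glycosidase genes, 2 were called on the AKR side and 0 on the DBA side, beside 12.5% and 11.5% of all genes. Man2b1 (1416340_a_at), for the lysosomal alpha-mannosidase, read 10.35, 10.31 and 10.50 in the AKR cross and 10.07, 10.01 and 9.96 in the DBA cross. No DBA array reached the lowest AKR array. The difference was 0.38 ± 0.07 (SE; 1.30-fold, adjusted p = 0.00597, limma), called under 18 of 18 alternatives. A second probe set of Man2b1 was called on the same side with 0.73 ± 0.12 (adjusted p over probe sets = 0.00214, limma). Gla (1418248_at), for alpha-galactosidase A, was the dimmest of the 37 genes, at 5.85, 5.84 and 5.80 against 5.47, 5.50 and 5.44. The crosses were apart, at levels not far above the 40th percentile of the arrays (5.21 to 5.28). The difference was 0.36 ± 0.09 (SE; 1.29-fold, adjusted p = 0.0194, limma). This gene was no longer called when AKR array 1 (adjusted p = 0.0628), AKR array 2 (0.0535) or DBA array 3 (0.0590) was left out and on the mean of its probe sets (0.0565).

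Gaa, for the acid glucosidase that breaks down glycogen, had probe sets that disagreed on the call. The brighter one read 8.36, 8.42 and 8.40 against 8.19, 8.28 and 7.98 and was not called (0.24 ± 0.09, adjusted p = 0.0854, limma). The other read 8.15, 8.03 and 8.12 against 7.63, 7.56 and 7.56. Its arrays were well apart, and it was called on the AKR side (0.51 ± 0.08, adjusted p over probe sets = 0.00191, limma). The genes for hexosaminidase A (Hexa), beta-galactosidase (Glb1), beta-glucuronidase (Gusb) and neuraminidase (Neu1) had overlapping arrays and differences of -0.06 ± 0.07, -0.08 ± 0.09, -0.11 ± 0.09 and 0.07 ± 0.11.

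Among 6 lipid-handling genes, 1 was called on the AKR side and 1 on the DBA side, beside 12.5% and 11.5% of all genes. Npc1 (1423086_at), for the membrane protein that moves cholesterol out of lysosomes, read 6.70, 6.65 and 6.88 in the AKR cross and 7.37, 7.34 and 7.33 in the DBA cross. The DBA arrays were nearly level and well above the AKR arrays, which spread more, with means 6.74 ± 0.12 and 7.35 ± 0.02 (SD, n = 3). The difference was -0.61 ± 0.09 (SE; 1.52-fold, adjusted p = 0.00270, limma), the largest of the 37, called under 18 of 18 alternatives. Differences of at least this size were seen in 3.96% of all genes, beside 37.2% for Tpp1, the called gene with the smallest difference. Npc2, for the soluble protein that hands cholesterol to Npc1, differed by 0.05 ± 0.05. Lipa (1450872_s_at), for the acid lipase that frees cholesterol from its esters, read 10.82, 10.59 and 10.68 against 10.54, 10.30 and 10.48. Only a small gap separated the crosses. The difference was 0.26 ± 0.08 (SE; 1.20-fold, adjusted p = 0.0485, limma). The call did not hold when AKR array 1 (adjusted p = 0.141), AKR array 3 (0.0971), DBA array 2 (0.153) or DBA array 3 (0.0869) was left out, with dim probe sets kept (0.0566), with eBayes without trend (0.0918), with no variance sharing (0.161) and on the mean of its probe sets (0.0604). A second Lipa probe set was called on the same side (0.37 ± 0.08, adjusted p over probe sets = 0.0117, limma).

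Psap, for the precursor of the saposins that help to break down sphingolipids, was the brightest probe set among the 37 genes and differed by 0.03 ± 0.04. Asah1, for acid ceramidase, differed by -0.11 ± 0.07, with every DBA array higher. Ppt1, for a thioesterase that strips fatty acids from proteins, read 10.65, 10.49 and 10.68 against 10.67, 10.72 and 10.70 and differed by -0.09 ± 0.06, with overlapping arrays. A dimmer probe set of Ppt1 read 8.11, 8.06 and 7.96 against 7.84, 7.69 and 7.35. There every AKR array was higher, and it was called on the AKR side (0.42 ± 0.12, adjusted p over probe sets = 0.0351, limma).

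Of 5 measured membrane protein genes, 0 were called on the AKR side and 1 on the DBA side, beside 12.5% and 11.5% of all genes. Scarb2 (1454704_at), for LIMP-2, which carries glucocerebrosidase to lysosomes, read 10.33, 10.37 and 10.49 in the AKR cross and 10.59, 10.67 and 10.67 in the DBA cross. AKR array 3 came nearest to the DBA arrays. The difference was -0.25 ± 0.06 (SE; 1.19-fold, adjusted p = 0.0207, limma). It was not called when AKR array 1 (adjusted p = 0.0658), AKR array 2 (0.0603), DBA array 2 (0.0730) or DBA array 3 (0.0632) was left out, with eBayes without trend (0.0539), with no variance sharing (0.0657) and on the mean of its probe sets (0.213). Its other probe set gave 0.04 ± 0.07 and was not called. Lamp1 and Lamp2, for abundant proteins of the lysosomal membrane, had overlapping arrays and differences of -0.01 ± 0.05 and -0.08 ± 0.06. Mcoln1, for a calcium channel of the lysosome, read 8.16, 8.09 and 8.21 against 8.16, 8.04 and 8.11 and differed by 0.05 ± 0.08, with overlapping arrays. A second probe set of Mcoln1 read 7.29, 7.25 and 7.27 against 6.97, 6.78 and 7.10. There every AKR array was higher, and it was called on the AKR side (0.32 ± 0.10, adjusted p over probe sets = 0.0441, limma). Cd68, for a glycoprotein of macrophage lysosomes, read 9.08, 8.92 and 9.02 against 8.88, 8.81 and 8.63. Every AKR array was higher, and the gene was not called (0.23 ± 0.09, adjusted p = 0.0828, limma). It was called under 4 of 18 alternatives, quantile normalization among them (0.0272).

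Tfeb (1422566_at) read 7.39, 7.58 and 7.49 in the AKR cross and 7.28, 7.16 and 7.18 in the DBA cross. All AKR arrays were higher, and the gene fell just short of the threshold (0.28 ± 0.09, adjusted p = 0.0514, limma). It was called under 7 of 18 alternatives, quantile normalization among them (0.0315). Its relative Tfe3, singled out after its value was seen, was higher in the AKR cross by 0.32 ± 0.10 (SE; 1.25-fold, adjusted p = 0.0412, limma). The threshold was missed when AKR array 1 (adjusted p = 0.0919), AKR array 2 (0.122), AKR array 3 (0.0627), DBA array 2 (0.0975) or DBA array 3 (0.121) was left out, with dim probe sets kept (0.0517) and with no variance sharing (0.0939). Mitf, a relative best known from pigment cells and osteoclasts, was not called (-0.29 ± 0.11, adjusted p = 0.0859, limma).

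A wider list of 59 lysosomal genes, 53 of them measured, also went both ways, with 6 called on the AKR side and 6 on the DBA side (11.3% each, near the share of all genes) and a median of -0.01. The AKR count dropped to 3 when AKR array 3, DBA array 2 or DBA array 3 was left out, and was 4 when AKR array 1 or 2 was. The DBA count dropped to 3 when AKR array 2 was left out, to 2 for DBA array 2, and was 4 for DBA array 1. With 1 array left out the shares of all genes called fell too, to 6.95% to 11.1% and 7.4% to 9.3%. Igf2r, for the receptor that sorts enzymes tagged with mannose 6-phosphate, read 8.30, 8.37 and 8.52 in the AKR cross and 9.13, 8.99 and 9.08 in the DBA cross. All DBA arrays were well above, with a difference of -0.66 ± 0.08 (SE; 1.59-fold, adjusted p = 0.00115, limma). Gm2a, for the activator that presents a ganglioside to hexosaminidase A, read 9.21, 9.20 and 9.05 against 8.62, 8.65 and 8.49. All AKR arrays were well above, with a difference of 0.57 ± 0.08 (SE; 1.48-fold, adjusted p = 0.00203, limma). Ctsl, for cathepsin L, known for invariant chain processing in cortical epithelium, read 13.61, 13.52 and 13.60 against 13.25, 13.24 and 13.33. Its crosses were also apart, with a difference of 0.31 ± 0.04 (SE; 1.24-fold, adjusted p = 0.00136, limma).

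Smaller calls on the AKR side were Acp5, an acid phosphatase gene of osteoclasts and macrophages (0.29 ± 0.07), and those on the DBA side Ids, a sulfatase gene of glycosaminoglycan breakdown (-0.36 ± 0.07), Cd164, a membrane sialomucin gene (-0.24 ± 0.06), and Pcyox1, a gene of prenylcysteine breakdown (-0.43 ± 0.11). Ids was lost on the mean of its probe sets (adjusted p = 0.569), with a difference of -0.06 there, and Cd164 was lost when DBA array 2 (adjusted p = 0.0583) or DBA array 3 (0.0532) was left out, with eBayes without trend (0.0663) and with no variance sharing (0.0904). Acp5 was lost when AKR array 1 (adjusted p = 0.0635), AKR array 3 (0.0560), DBA array 2 (0.0502) or DBA array 3 (0.0642) was left out and with no variance sharing (0.0802). Pcyox1 was lost when AKR array 2 (adjusted p = 0.0709), AKR array 3 (0.0744), DBA array 1 (0.0692) or DBA array 2 (0.0538) was left out, with no variance sharing (0.127) and without probe sets marked as shared (0.257). Grn, for progranulin, and Gpnmb, a glycoprotein gene of macrophages, were not called (0.02 ± 0.09 and 0.06 ± 0.09).

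Over all listed genes, 34 further probe sets of 22 genes were tested. Of these, 6 were called on the AKR side (12.2% of all probe sets were), namely those of Ctsb, Man2b1, Gaa, Lipa, Ppt1 and Mcoln1 described above. Another 1, of Atp6v1h, was called on the DBA side (15.0% of all probe sets), and 27 were not called. No gene had probe sets called in both directions. Whether sequence variants between the parent strains lie under these probes was not tested.

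Markers of several cell types also differed. With all 6 arrays, the counts of each list stand beside 12.5% of all genes called on the AKR side and 11.5% on the DBA side. With 1 array left out, they stand beside 6.95% to 11.1% and 7.4% to 9.3% of all genes. Of 15 macrophage markers tested, 4 were called on the AKR side and 2 on the DBA side, and the mean log2 level of the list was 8.45 to 8.51 on the arrays of the AKR cross and 8.54 to 8.56 on the others. The 4 on the AKR side, all given here after their values were seen, were Timd4, a receptor gene for dying cells (0.78 ± 0.15), Lyz2, the lysozyme gene, whose product is itself found in lysosomes (0.27 ± 0.06), C1qc, a complement gene (0.29 ± 0.07), and Mertk, a receptor gene for uptake of dying cells (0.41 ± 0.12). Mrc1, a mannose receptor gene, and Cd163, a haemoglobin scavenger gene, were higher in the DBA cross (-0.63 ± 0.08 and -1.02 ± 0.18). Mertk was called under 12 of 18 alternatives, and not when AKR array 2 or 3 or DBA array 1 or 2 was left out. Lyz2 was called under 16 of 18, Timd4 under 17, C1qc and Mrc1 under 18, and Cd163 under 16 of 17. Adgre1, Csf1r and C1qa, broad macrophage markers, were not called (-0.29 ± 0.10, -0.04 ± 0.06 and -0.12 ± 0.06). Of 9 dendritic cell markers, 2 were on the AKR side, such as Cd209a (0.56 ± 0.11), and 1 on the DBA side (Fscn1, -0.45 ± 0.10, with the sign turned under other probe set choices), and list levels were 7.22 to 7.27 on the arrays of the AKR cross and 7.22 to 7.26 on the others. With 1 array left out the AKR count of this list was 1. Itgax was not called (-0.22 ± 0.09).

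Of 7 neutrophil markers, 4 were called on the DBA side, such as S100a8 and S100a9 (-0.96 ± 0.19 and -0.97 ± 0.22), and list levels were 7.23 to 7.84 on the arrays of the AKR cross and 7.98 to 8.20 on the others. Without single arrays 1 to 3 of them were called, 3 with AKR array 3 left out, 1 with DBA array 2 left out and 2 with any other. Of 6 B cell markers, 4 were called on the AKR side, such as Cd79a and Cd22 (0.74 ± 0.10 and 0.52 ± 0.09), with 2 called when AKR array 1, AKR array 3 or DBA array 3 was left out and 3 for each of the others. B cell list levels were 7.65 to 7.74 on the arrays of the AKR cross and 7.22 to 7.41 on the others. Of 7 cortical epithelial markers, 2 were called on the AKR side, Foxn1 and Dll4 (0.67 ± 0.12 and 0.36 ± 0.11), with 2 called when AKR array 3 was left out, 1 for each of the others, and list levels of 9.93 to 10.02 on the arrays of the AKR cross and 9.84 to 9.90 on the others. The differences of these 7 were positive for 4 and negative for 3, with a median of 0.04. Dll4 was called under 9 of 18 alternatives. Of 7 medullary epithelial markers, 1 was on the AKR side (Cldn4, 1.24 ± 0.13) and 3 on the DBA side, such as Epcam (-0.59 ± 0.09), with overlapping list levels between 7.97 and 8.01 over all 6 arrays. The DBA count of that list was 1 to 3 without single arrays, with the fewest when AKR array 2 was left out. Among thymocyte markers 1 of 10 was called (Cd3e, 0.30 ± 0.04), with 8 of 10 positive, a median of 0.12 and list levels of 11.66 to 11.79 on the arrays of the AKR cross and 11.62 to 11.64 on the others, which did not overlap. With AKR array 2 left out 2 of them were called. Among mesenchymal markers 1 of 7 was called (Pdgfra, -0.49 ± 0.15, also called with AKR array 2 left out and with no other), and among endothelial and fat markers 0 of 3 in each list. List levels of the fat markers were 8.81 to 10.45 on the arrays of the AKR cross and 9.61 to 10.71 on the others. The part of these cells in the differences of the lysosomal genes was not tested.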

How the data were processed

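Total RNA of thymus was hybridised to 6 Affymetrix arrays. The deposited values were used as log2 values, a scale read from their range (2.47 to 14.4); per the submitters' processing notes, the tools were MAS5 and RMA, with no roles, and the one behind these values is not stated in the sources at hand. Of 45101 probe sets, 64 controls were left out, and 27385 that lay above the 40th percentile of their array on at least 3 arrays were tested. Symbols came from the platform annotation. The 12855 genes, 1 probe set each, were fitted with limma 3.58.1 (eBayes with trend) in R 4.3.3, with no covariates, two-sided. Figures used Python 3.11.15 and matplotlib 3.10.9. The fit was tested on simulated data with independent noise on each array. Such data cannot test scatter that real arrays share.

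The lysosomal genes and all lists were chosen with earlier results of these data known. Called genes of the list, and those whose probe sets disagree, are given on every array; other lysosomal genes are named as the 5 called with the smallest adjusted p on each side plus Ctsl, Gpnmb, Grn and Mitf (another gene of that rule is not reported here), and markers as the 2 called with the smallest adjusted p per list plus broad markers; Tfe3 and 4 macrophage markers were added after their values were seen. Alternatives were the normalization (none, quantile, median centring, cyclic loess), the filter, the variance model, array weights, the probe sets used, the replicate block and leaving out each array.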

Additional observations from a re-analysis of the deposited data

How the results depend on the processing

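Of the 13 calls, those of Ctsc, Ctsd, Man2b1, Npc1, Atp6v0d1 and Atp6v1a were made under every alternative that kept the gene's probe sets. The median over the 37 genes ran from -0.00169 to 0.0648. With each array left out, genes called ranged from 893 to 1422 on the AKR side and 948 to 1200 on the DBA side, lysosomal genes of the list from 6 to 8 and 3 to 4, and other lysosomal genes from 3 to 7 and 2 to 5. Over all genes, the 1604 calls on the AKR side fell to 987, 1015 and 999 when AKR array 1, 2 or 3 was left out, and to 893 and 920 for DBA array 2 or 3. The 1480 on the DBA side fell to 948 and 950 for AKR array 2 or DBA array 2. Without sharing of variance between genes, 726 and 641 genes were called (5.65% and 4.99% of all genes), and 3 and 2 other lysosomal genes. Of the 9 listed genes on the AKR side, Tpp1, Lipa and Atp6v0b were lost and the rest were kept. On the DBA side 2 listed genes were called. Other lysosomal genes on the AKR side numbered 10 of 53 after quantile normalization (16.9% of all genes) and 10 of 53 after median centring (16.8% of all genes). Directions turned, among others, for Atp6v1h (-0.45) and Fscn1 (0.22) when all probe sets of a gene were averaged. They also turned for Fscn1 (0.10) and Atp6v1g1 (0.22) when probe sets marked as cross-hybridising or shared were left out. Genes near 0 that were not called also changed sign over the alternatives, such as Ppt1 (-0.13 to 0.12), Ctse (-0.07 to 0.07) and Neu1 (-0.08 to 0.18). The cause was not tested.

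The main fit did not use the replicate numbers as pairs, and whether they pair the arrays was not settled. Deviations of same-numbered arrays correlated by 0.39, 0.07 and 0.37, beside -0.375 to 0.0748 for different numbers. Of 6 arrays, 5 correlated best with their own number. With the replicate block, 2177 and 2017 genes (16.9% and 15.7% of all genes), 13 and 4 listed genes, and 10 and 8 other lysosomal genes were called. Dim genes such as Gla are limited by signal near background.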
